A study of Mus musculus with 212 samples.

Results

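Gata4 was followed with its 2 TaqMan assays, Gata4-1 and Gata4-2, in 192 distinct single mouse cells of the heart lineages. It was chosen by name as 1 of the 33 genes (2 of the 42 assays) of the panel. No measured value was used as a rule for the choice, but earlier results of these data were known. Cells of mouse embryos, of hearts and of cultures grown from embryonic stem (ES) cells were sorted one by one, and their RNA was copied, pre-amplified and quantified by microfluidic PCR. The authors deposited PCR threshold cycles (Ct), with 25 standing for no signal. A level is 25 minus Ct, that is, the number of cycles by which a cell passed the detection limit; 1 cycle corresponds to a doubling of template if the PCR is fully efficient, and undetected cells count as 0. Values of different assays are not amounts on one scale, so levels are compared within an assay.

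Gata4 is a zinc finger transcription factor that binds GATA motifs and is needed for heart tube formation and for the growth of the heart muscle. It is made in cardiac progenitors, in heart muscle cells and in endocardial and valve precursor cells, and is known for acting together with Nkx2.5, Tbx5, Mef2C and Hand2 on the genes of the contractile apparatus. Together with Mef2C and Tbx5 it is also known as a reprogramming factor that turns fibroblasts towards muscle-like cells.

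The 21 named sets of cells came from 7 separately deposited tables. The reference table held 5 cells of each of 6 types, which the cell names call CM, CPC, SMC, FB, EDC and ES and which carry no age. The D23-D29 table held 10 cells each of D23 and D29, and the D5-D8 table held D5, D6, D7 and D8 cells, 6 of each. Another table held 6 cells each of E7.5, E8.5, E9.5 and E10.5, and a larger E10.5 table held 72 cells. The atrial and ventricular tables each held 10 adult and 5 neonatal cells. The sample titles contradict the tables in 3 sets: those of the D5-D8 cells name an embryo, those of the E7.5-E10.5 cells name late ES-cell derivatives, and those of the D23-D29 cells name early ones. Sets are called here by the names inside the tables. No strain, animal, sex, culture or driver of a reporter is named for any set, so each set is 1 sample. The errors given are SDs between cells, no test was possible, and a difference of means of at least 1 cycle is called higher or lower. Intervals of percentages are exact 95% binomial (Clopper-Pearson) intervals, which account for the counting of cells alone.

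The 7 tables held 200 cells, of which 8 repeat a cell of another table in every assay. The 6 E10.5 cells of the stage table are part of the larger E10.5 table, and 2 of the 5 CM cells are D29 cells. Both Gata4 assays were at 0 in every negative control column. The larger E10.5 table, with 72 cells, has no control column. Cells detected on average 8.2 assays in the ES set, the fewest, and 29.5 in the E9.5 set, the most. The housekeeping assay Actb varied from 4.6 ± 2.34 cycles (SD, n = 10) in adult ventricular cells to 12.66 ± 0.46 cycles (SD, n = 6) in D5 cells. Both measures therefore moved with stage and type, and their part in the Gata4 differences was not tested beyond the centring on Actb given below. Defining markers fitted most names: both Tnnt2 assays were detected in 5 of 5 CM cells, Cdh5 in 5 of 5 EDC cells, Myh11 in 5 of 5 SMC cells and Sox2 in 5 of 5 ES cells. Sox2 was also detected in 4 of 5 CPC, 3 of 5 FB, 2 of 5 SMC and 1 of 5 CM cells, and both Tnnt2 assays in 1 of 5 SMC cells. Of the progenitor markers, CPC cells had Hand1 in 5 of 5, Isl1-2 in 4 of 5, Flk-1 in 3 of 5, Mesp1 in 1 of 5 and Isl1-1 in 0 of 5. The FB cells all had Vim and Fn1, but the fibroblast marker Pdgfra was detected in 0 of 5. Pou5f1, a pluripotency gene, was detected in all 5 cells of every reference type, with its highest reference level in ES cells.

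Gata4 was detected in most cells by the second assay and in fewer by the first. Gata4-2 gave signal in 162 of 192 cells (84.4%, interval 78.5% to 89.2%), and Gata4-1 in 114 of 192 (59.4%). Both assays had their highest mean in E9.5 cells. Gata4-2 averaged 8.74 ± 0.63 cycles there (SD, n = 6) and ranged from 7.73 to 9.52. Gata4-1 averaged 6.36 ± 0.27 cycles (SD, n = 6) and ranged from 5.89 to 6.66, the narrowest spread of any set that detected it. In the order of Gata4-2 means, E9.5 was followed by E10.5 (7.86 ± 1.0), neonatal atrial (7.85 ± 1.04), neonatal ventricular (7.76 ± 0.77), the 66 other E10.5 cells (7.73 ± 2.07) and D8 (7.05 ± 1.20). The middle of the order ran from D6 (6.66 ± 1.67) through the adult heart sets, D7, D29, D5, CPC, E7.5, E8.5 and CM (4.31 ± 0.64) to FB (4.23 ± 2.41). The 4 lowest sets were EDC (1.92 ± 2.64), D23 (1.32 ± 2.16), SMC (1.19 ± 2.67) and ES (0.48 ± 1.08). The largest step between neighbours, 2.31 cycles from FB to EDC, was still smaller than the larger SD of the pair, as were the other gaps: 0 of 20 exceeded it for either assay. The sets come from separate tables, so the order across tables also carries any difference between tables, which was not tested.

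**Figure D1:**
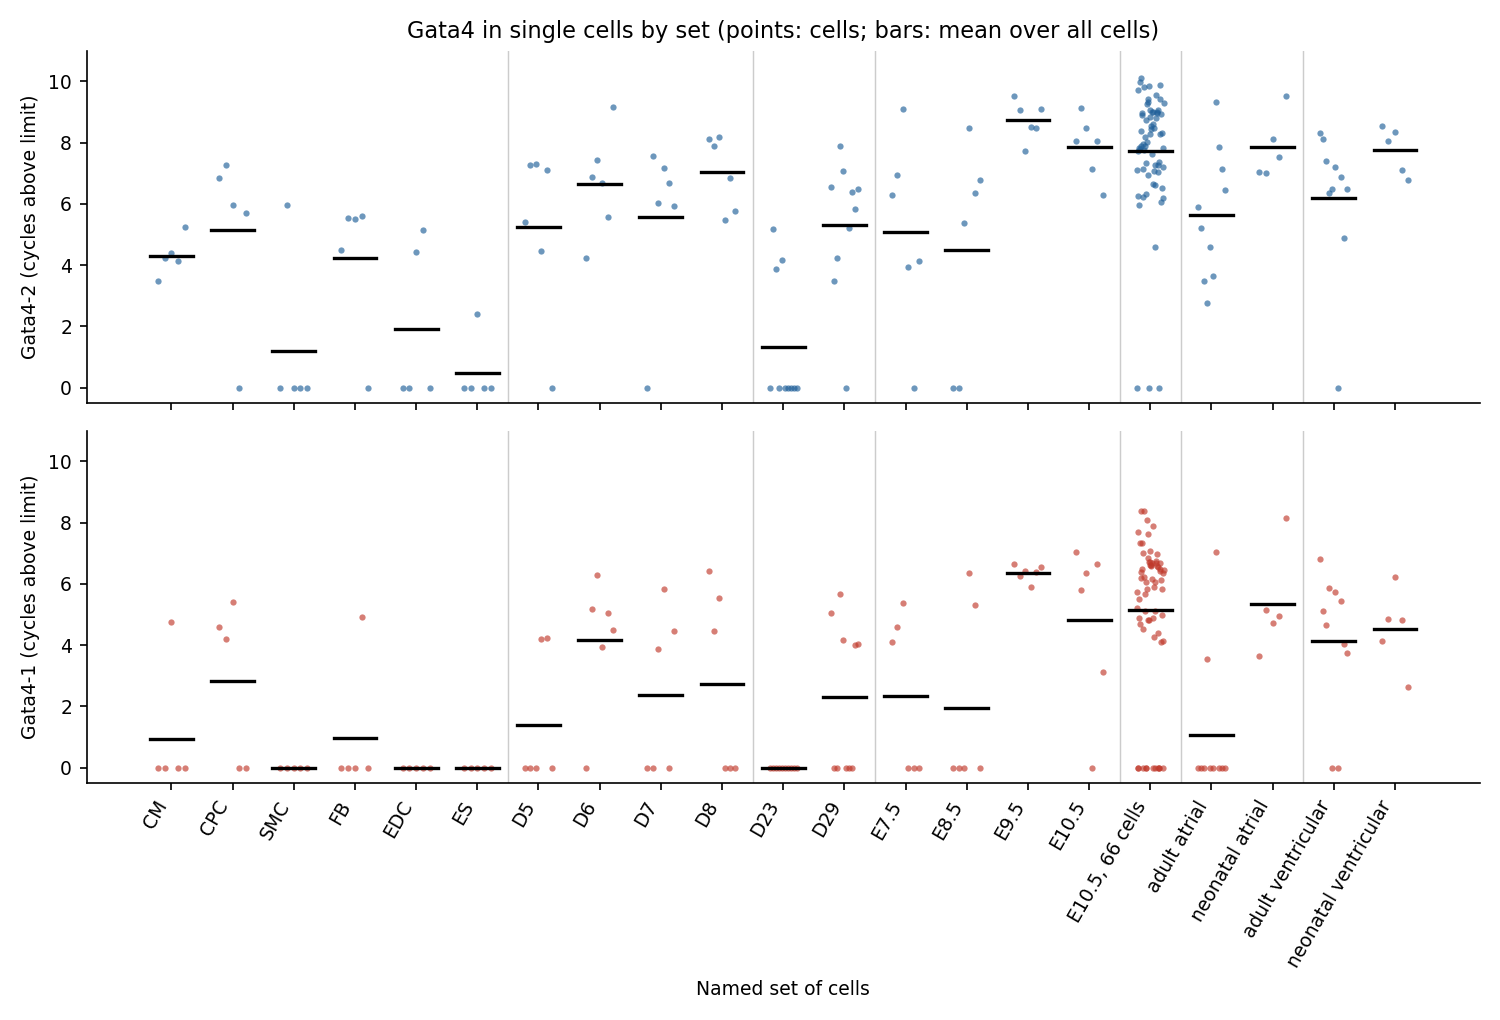
Level of Gata4-2 (upper panel) and Gata4-1 (lower panel) in cycles above the detection limit for each named set; points are cells, horizontal bars are means over all cells and thin vertical lines separate tables. Both assays peak in E9.5 cells, D29 cells are mostly detected and D23 cells mostly at 0 in the upper panel, and adult atrial cells are detected in the upper panel but mostly at 0 in the lower one.

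In the reference types, Gata4 was found in CM, CPC and FB cells and seldom in the others. Gata4-2 stood at 3.48, 4.24, 4.40, 4.15 and 5.25 cycles in the 5 CM cells, against 6.86, 7.27, 5.98, 0 and 5.72 cycles in the 5 CPC cells. All CM cells were detected and lay close together, and the 4 CPC cells that detected the assay lay above every CM cell, with the fifth at 0. Gata4-1 was at 4.74 cycles in 1 CM cell and 0 in the other 4, against 4.61, 4.21, 5.40, 0 and 0 cycles in the CPC cells. FB cells had Gata4-2 at 4.49, 5.55, 5.51, 5.6 and 0 cycles, and Gata4-1 at 4.91 in 1 cell. Among SMC, EDC and ES cells, Gata4-1 was detected in 0 of 15 (interval up to 21.8%), while Gata4-2 was detected in 4 of 15, namely 1 SMC cell (5.97), 2 EDC cells (4.44 and 5.14) and 1 ES cell (2.42).

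Between CM and CPC cells, the differences of the Gata4 means were smaller than the larger SD of the 2 sets. Gata4-2 averaged 4.31 ± 0.64 cycles in CM cells and 5.16 ± 2.95 cycles in CPC cells (SD, n = 5 each), a difference of -0.86 cycles, below the 1-cycle call. Gata4-1 averaged 0.95 ± 2.12 and 2.84 ± 2.63 cycles in the same order of groups, a difference of -1.89 cycles, called lower in CM cells. Of all 42 assays, 31% were higher and 40.5% lower in CM cells by this rule, so 1 lower Gata4 assay of 2 was near the background. The partner factors, 9 assays for the genes Nkx2.5, Tbx5, Mef2C, Hand1, Hand2 and Isl1, split into 3 higher and 3 lower in CM cells, with a median difference of 0.73 cycles beside 0 over all assays. Centred on Actb, 7 were higher and 1 lower. Nkx2.5-1, a homeobox factor of the heart field, averaged 7.8 ± 0.63 cycles in CM cells and was not detected in CPC cells. Hand1, a basic helix-loop-helix factor, averaged 7.0 ± 0.46 cycles in CM cells and 11.22 ± 1.19 cycles in CPC cells, a difference of -4.22 cycles as measured and 1.01 cycles centred on Actb. The summed level of the 3 fibroblast markers Vim, Fn1 and Pdgfra ran from 0 to 11.44 cycles in CM cells and from 24.98 to 31.28 cycles in CPC cells, and its part in the Gata4 values was not tested. All 10 assays of heart muscle genes known to lie under Gata4 control (Myh6, Myh7, Tnni3, Tnnt2, Myl2 and Actn2) were higher in CM cells, with a median difference of 9.39 cycles. On a scale centred on Actb, the Gata4-2 difference was 4.19 cycles, that is, higher in CM cells; Actb itself averaged 6.30 ± 0.56 cycles in CM cells and 11.53 ± 0.69 cycles in CPC cells. Without the 1 CPC cell at 0 the Gata4-2 difference was -2.15 cycles, and without the highest CM cell it was -1.10 cycles, past the call. Between medians the differences were -1.74 cycles for Gata4-2, also past the call, and -4.21 cycles for Gata4-1. Without the 1 CM cell that detected it the Gata4-1 difference was -2.84 cycles, and without the highest CPC cell it was -1.26 cycles.

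**Figure D2:**
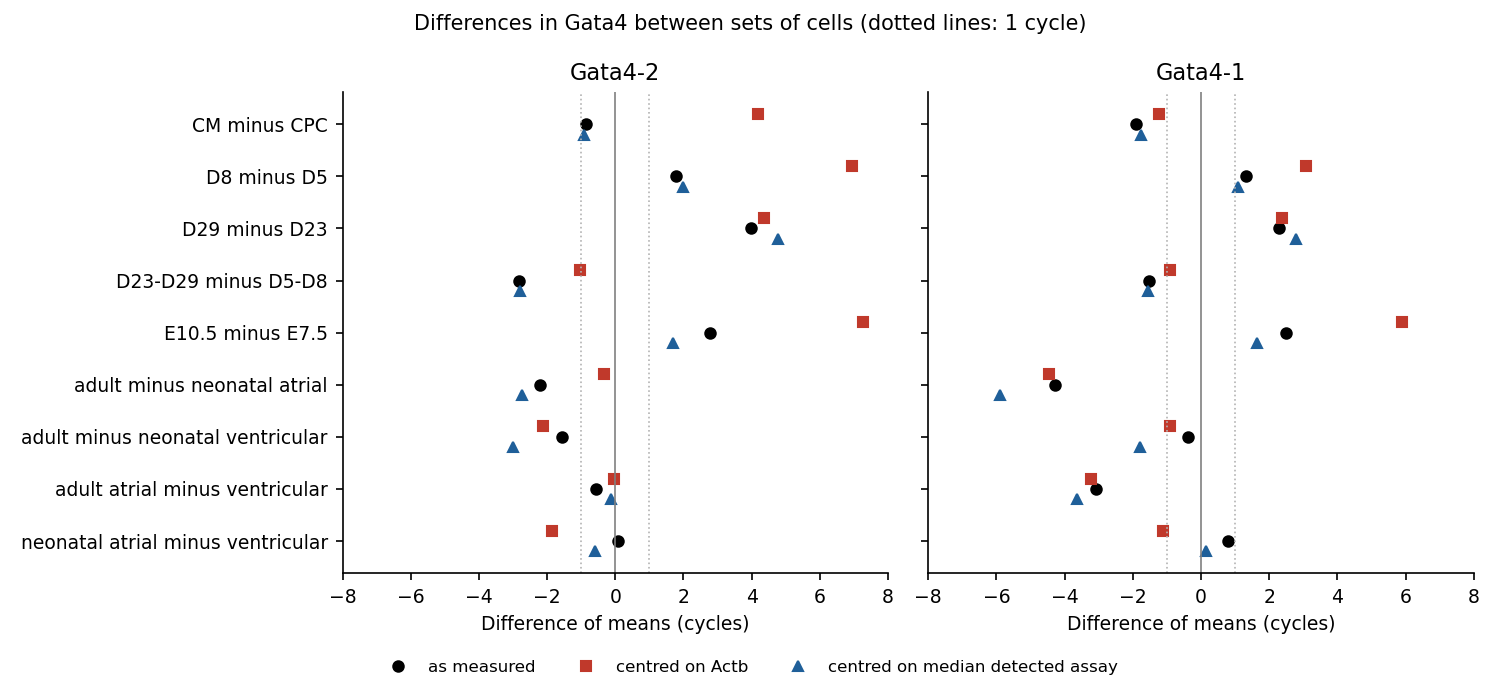
Differences of mean level between sets (first-named minus second-named, in cycles) for Gata4-2 (left) and Gata4-1 (right); circles are values as measured, squares are centred on Actb, triangles are centred on each cell's median detected assay, and dotted lines mark 1 cycle. D29 minus D23, D8 minus D5 and E10.5 minus E7.5 are above 1 cycle with every zero point in both panels. Adult minus neonatal atrial, adult atrial minus ventricular and CM minus CPC are below -1 cycle with every zero point in the right panel only. D23-D29 minus D5-D8 and adult minus neonatal ventricular are so in the left panel only.

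Gata4 was already present in D5 cells of the early cultures. In order of day, Gata4-2 was detected in 5 of 6 D5, 6 of 6 D6, 5 of 6 D7 and 6 of 6 D8 cells, with means of 5.26 ± 2.83, 6.66 ± 1.67, 5.56 ± 2.80 and 7.05 ± 1.20 cycles (SD, n = 6 each). Gata4-1 was detected in 2, 5, 3 and 3 of the 6 cells of D5, D6, D7 and D8, with means of 1.40 ± 2.17, 4.15 ± 2.18, 2.36 ± 2.66 and 2.74 ± 3.06 cycles. The days overlapped throughout, and neither assay moved one way from day to day.

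Set against D5, the D8 cells had more Gata4 by both assays, by less than the spread between cells. The 6 D8 cells had Gata4-2 at 8.12, 7.88, 8.18, 5.48, 6.84 and 5.78 cycles, against 5.40, 7.28, 7.30, 4.47, 7.11 and 0 cycles in the D5 cells. The highest 3 D8 cells lay above every D5 cell, and the other 3 lay within the D5 range. The difference was 1.79 cycles for Gata4-2 and 1.33 cycles for Gata4-1, both called higher. By the same rule 50% of all assays were higher and 26.2% lower in D8 cells. Cdh5, an endothelial marker, was detected in 0 of 6 D8 cells and in 1 of 6 D5 cells, the one at 0 for both Gata4 assays. Without that D5 cell the differences were 0.73 cycles for Gata4-2, below the call, and 1.05 cycles for Gata4-1. The summed fibroblast markers ran from 8.0 to 22.6 cycles in D8 cells and from 22.7 to 30.1 cycles in D5 cells, and their part was not tested. Over the cells that detected it, the Gata4-2 difference was likewise 0.73 cycles, and between medians the Gata4-1 difference was 2.23 cycles. On the Actb scale it was 6.95 cycles for Gata4-2 and 3.09 cycles for Gata4-1, with Actb at 7.09 ± 1.59 cycles in D8 cells and 12.66 ± 0.46 cycles in D5 cells.

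Most partner factors and all muscle assays stood higher in D8 than in D5 cells. Of the 9 partner assays 7 were higher and 1 lower, with a median of 4.24 cycles beside 1.15 cycles over all assays. Nkx2.5-1 averaged 9.2 ± 1.16 cycles in D8 cells and was detected in 0 of 6 D5 cells, an upper limit of 45.9%. Hand1 was the lower one, at 3.58 ± 4.33 cycles in D8 cells and 10.88 ± 2.23 cycles in D5 cells. All 10 muscle assays were higher, with a median of 7.76 cycles. Myh6-1, the alpha heavy chain of cardiac myosin, averaged 10.86 ± 1.71 cycles in D8 cells and was not detected in D5 cells. Gata4-2 was thus detected in 5 of the 6 D5 cells, and no assay of Myh6 or Myh7 in any of them. Other muscle assays gave signal in some D5 cells: Tnnt2-2 in 4 of 6, and Tnni3-1 and Tnni3-2 in 2 of 6 each. Tnnt2-1, Actn2 and Myl2 were detected in 1 of 6 each.

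The 2 late culture days differed in how many cells had Gata4. Gata4-2 was detected in 9 of 10 D29 cells (interval 55.5% to 99.7%) and in 3 of 10 D23 cells (6.7% to 65.2%). These intervals overlap. The D29 cells stood at 6.54, 3.48, 4.24, 7.91, 7.09, 0, 5.21, 6.38, 5.85 and 6.47 cycles. The 3 D23 cells that detected it stood at 5.19, 3.88 and 4.17 cycles and the other 7 at 0. The detecting D23 cells lay inside the D29 range, so the sets overlapped. Gata4-1 was detected in 5 of 10 D29 cells, at 5.06, 5.68, 4.17, 4.0 and 4.04 cycles, and in 0 of 10 D23 cells, whose interval ends at 30.8%. The 2 D29 cells that recur in the CM set are those with Gata4-2 at 3.48 and 4.24 cycles, the lowest of the D29 cells that detected it.

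Gata4-2 averaged 5.32 ± 2.28 cycles in D29 cells and 1.32 ± 2.16 cycles in D23 cells (SD, n = 10 each), a difference of 3.99 cycles. The Gata4-1 difference was 2.29 cycles. By the 1-cycle rule 38.1% of all assays were higher and 7.14% lower in D29 cells, so both Gata4 assays were on the more common side. As measured, Gata4-2 and then Gata4-1 had the largest differences of all assays, before Mef2C-2 at 2.17 cycles. On the Actb scale Mef2C-2, at 2.52 cycles, stood above Gata4-1. Centred on Actb the differences were 4.37 and 2.38 cycles, and centred on the median detected assay 4.76 and 2.78 cycles, for Gata4-2 and Gata4-1 in that order. Over detecting cells alone the Gata4-2 difference was 1.49 cycles, and between medians 6.11 cycles. A zero stands for any amount below the limit, so the size of a difference against cells at 0 depends on where the limit lies.

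Cells with and without Gata4-2 overlapped within D23 in how many other assays they detected, and D29 cells detected somewhat more than D23 cells. The 3 with Gata4-2 detected a median of 20 others (19 to 21), and the 7 without it a median of 21 (17 to 22). The 9 D29 cells with Gata4-2 detected a median of 22 others (17 to 25), and the 1 without it detected 17. Over all cells, 22.4 ± 3.06 assays were detected in D29 cells and 19.9 ± 2.08 in D23 cells, and the part of this in the Gata4 difference was not tested. Actb averaged 5.62 ± 1.03 cycles in D29 cells and 5.84 ± 0.81 cycles in D23 cells. Both Tnnt2 assays were detected in all 20 cells, and Cdh5 and Flk-1 in none. Nkx2.5-1 was detected in all 12 cells with Gata4-2 and in all 8 without it. For the T-box factor Tbx5 these counts were 10 of 12 and 7 of 8.

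Of the 9 partner assays, 6 were higher in D29 than in D23 cells and 1 was lower, with a median of 1.10 cycles beside 0.61 over all assays. Mef2C-2, for a MADS-box factor, averaged 3.63 ± 2.17 cycles in D29 cells and 1.46 ± 1.97 cycles in D23 cells. Nkx2.5-2 averaged 5.49 ± 1.26 cycles in D29 cells and 4.04 ± 1.76 cycles in D23 cells. Hand1 was the lower one, at 3.62 ± 3.23 cycles in D29 cells and 4.93 ± 2.48 cycles in D23 cells. Of the 10 muscle assays 5 were higher and 2 lower. Tnnt2-2, cardiac troponin T, averaged 11.56 ± 0.69 cycles in D29 cells and 9.69 ± 1.07 cycles in D23 cells, and Myh7-2, the beta myosin heavy chain, averaged 4.51 ± 4.23 and 6.23 ± 4.35 cycles in the same 2 sets.

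Across the culture tables, late cells had less Gata4 than early ones. Gata4-2 averaged 3.32 ± 2.98 cycles in the 20 D23-D29 cells and 6.13 ± 2.22 cycles in the 24 D5-D8 cells, a difference of -2.81 cycles. Gata4-1 averaged 1.15 ± 2.07 cycles and 2.66 ± 2.58 cycles in these groups, a difference of -1.52 cycles. Both were called lower, and by that rule 33.3% of all assays were higher and 33.3% lower. The late group joins D29, with a Gata4-2 mean close to that of D5, and D23, whose mean was far below it. Centred on Actb, the differences were -1.04 and -0.92 cycles, the second below the call, and over detecting cells they were -1.16 and -0.33 cycles. The positive control differed between these tables: Gata4-2 stood there at 14.80 cycles in the D23-D29 table and at 13.36 cycles in the D5-D8 table, and Gata4-1 at 13.56 and 12.70 cycles. Relative to the positive control, the differences were -4.25 and -2.38 cycles. The D5-D8 control values of both Gata4 assays recur unchanged in the reference and stage tables. Whether they were measured together with the D5-D8 cells is therefore unknown. All 10 muscle assays were higher in D23-D29 cells, with a median of 3.86 cycles, and of the 9 partner assays 2 were higher and 3 lower (5 higher and 1 lower when centred on Actb). Hand2, another basic helix-loop-helix factor, was among the lower ones, at 3.33 ± 2.65 cycles in D23-D29 cells and 5.53 ± 2.15 cycles in D5-D8 cells.

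In the embryo stages, Gata4 split the early cells and was present throughout at the later stages. In order of stage, Gata4-2 was detected in 5 of 6 E7.5, 4 of 6 E8.5, 6 of 6 E9.5 and 6 of 6 E10.5 cells, at 5.07 ± 3.13, 4.50 ± 3.63, 8.74 ± 0.63 and 7.86 ± 1.0 cycles (SD, n = 6 each). Gata4-1 was detected in 3, 2, 6 and 5 of 6 cells in the same order, at 2.34 ± 2.60, 1.94 ± 3.02, 6.36 ± 0.27 and 4.83 ± 2.75 cycles. The 6 E9.5 cells, at 7.73 cycles and above for Gata4-2, lay above all E7.5 and E8.5 cells but 2, which stood at 9.08 and 8.49 cycles.

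Set against E7.5, the E10.5 cells had more Gata4 by both assays, but stood within 1 cycle of the E7.5 cells with no Cdh5. Gata4-2 stood at 8.05, 9.13, 8.48, 7.14, 8.06 and 6.30 cycles in the E10.5 cells, against 6.30, 6.95, 9.08, 3.95, 0 and 4.13 cycles in the E7.5 cells. One E7.5 cell reached the upper E10.5 values, and 3 lay below every E10.5 cell. The difference was 2.79 cycles for Gata4-2 and 2.49 cycles for Gata4-1, both called higher, where 57.1% of all assays were higher and 21.4% lower. Endothelial markers moved with this difference. Cdh5, Pecam1 and Vwf were each detected in 0 of 6 E10.5 cells and in 3 of 6 E7.5 cells, not all the same ones. One E7.5 cell with Vwf, at 5.30 cycles, had no Cdh5 or Pecam1 and stood at 6.95 cycles for Gata4-2. It is among the cells with no Cdh5. Over the cells with no Cdh5 the differences were 0.41 cycles for Gata4-2 and 0.14 cycles for Gata4-1, both below the call. The 3 such E7.5 cells averaged 7.44 ± 1.46 cycles for Gata4-2 and 4.69 ± 0.63 cycles for Gata4-1. With the 66 other E10.5 cells in place of the 6, and all E7.5 cells, the differences were 2.66 and 2.80 cycles. Actb averaged 6.70 ± 1.06 cycles in E10.5 cells and 11.50 ± 0.72 cycles in E7.5 cells, and centring on it gave 7.26 and 5.89 cycles for Gata4-2 and Gata4-1. With each cell set to its median detected assay they were 1.69 and 1.66 cycles, and over detecting cells 1.78 and 1.11 cycles. Between medians the Gata4-1 difference was 4.03 cycles.

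Partner and muscle assays were mostly higher in E10.5 cells as well. Of the 9 partner assays 6 were higher and 1 lower, with a median of 4.48 cycles beside 2.64 over all assays. Mef2C-2 averaged 6.32 ± 1.11 cycles in E10.5 cells and was detected in 0 of 6 E7.5 cells. Hand2 averaged 6.93 ± 0.91 cycles in E10.5 cells and 0.84 ± 2.06 cycles in E7.5 cells. All 10 muscle assays were higher, with a median of 10.06 cycles. Tnnt2-1 averaged 12.42 ± 0.86 cycles in E10.5 cells and was detected in 0 of 6 E7.5 cells, of which 5 nevertheless had Gata4-2.

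Splitting the 72 E10.5 cells by Tnnt2, a heart muscle marker, and Cdh5 (VE-cadherin, an endothelial and endocardial marker) gave Gata4 in every class. In the 60 cells with both Tnnt2 assays and no Cdh5, Gata4-2 was detected in 58 (96.7%), at 7.81 ± 1.82 cycles, and Gata4-1 in 50 (83.3%), at 5.12 ± 2.48 cycles. In the 6 cells with Tnnt2 and Cdh5, Gata4-2 was detected in 6, at 8.12 ± 1.72 cycles, and Gata4-1 in 5, at 5.43 ± 3.02 cycles. In the 6 cells with Cdh5 and not both Tnnt2 assays (5 had neither and 1 had Tnnt2-1), each of the assays was detected in 5, at 6.61 ± 3.57 and 4.79 ± 2.81 cycles for Gata4-2 and Gata4-1. The classes overlapped over nearly their whole range.

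These last 6 cells had other endothelial genes and scattered muscle signal. Pecam1 was detected in 6 of 6, at 7.04 ± 1.32 cycles, and Flk-1, a vascular receptor, in 5 of 6. Of the 10 muscle assays, Actn2, Tnnt2-2, Tnni3-2, Myh6-2 and Myh7-1 were each detected in 0 of 6 (interval up to 45.9%). Tnnt2-1, Tnni3-1 and Myh6-1 were each detected in 1 of 6, at 6.11, 5.24 and 4.35 cycles, and Myh7-2 in 2 of 6. Myl2 was detected in 3 of 6, at 4.44 ± 0.45 cycles in those cells. The 6 cells detected 18.2 ± 2.93 assays each, against 26.8 ± 3.90 in the 60 cells with Tnnt2 and no Cdh5. Their Gata4-2 values were 0, 6.08, 6.66, 7.71, 9.08 and 10.12 cycles, the last being the highest Gata4-2 value of the E10.5 table. The cell at 10.12 cycles had neither Vwf nor Flk-1 and the lowest Pecam1 level of the 6, 4.92 cycles. The cell at 9.08 cycles had no Vwf, and the 4 cells with Vwf were those at 0, 6.08, 6.66 and 7.71 cycles. The 1 cell at 0 for Gata4-2 had Gata4-1 at 4.81 cycles, so all 6 had Gata4 by at least 1 assay.

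The same split in the younger embryo cells, chosen after their values were seen, gave another picture. At E7.5 and E8.5, 5 cells had Cdh5 and not both Tnnt2 assays. They had Gata4-2 at 0, 0, 0, 3.95 and 4.13 cycles, and Gata4-1 in 0 of 5 (interval up to 52.2%). They had Cdh5 at 10.28 ± 1.42 cycles, Pecam1 at 5.88 ± 1.54 cycles and Flk-1 at 10.19 ± 0.63 cycles, and Actb at 11.57 ± 0.84 cycles. At E8.5 Tnnt2-1 was detected in 5 of 6 cells and Tnnt2-2 in 4 of 6, so 1 cell of this kind had Tnnt2-1. In the E10.5 cells of this kind the 5 detected Gata4-2 values lay at 6.08 cycles or above and 1 cell was at 0, whereas in the younger ones the 2 detected values lay at or below 4.13 cycles and 3 cells were at 0. The E10.5 and the younger cells are from separate tables, and the number of assays detected also differed (18.2 ± 2.93 and 14.6 ± 1.82). The 5 EDC reference cells resembled the younger cells in these values, with Gata4-2 at 0, 0, 0, 4.44 and 5.14 cycles and Gata4-1 in 0 of 5.

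Within the stage table, Gata4 stood lower in cells with Cdh5 than in cells without it. Gata4-2 was detected in 2 of the 5 cells with Cdh5, at 1.62 ± 2.21 cycles, and in 19 of the 19 cells without it, at 7.84 ± 1.21 cycles. For Gata4-1 these counts were 0 of 5 and 16 of 19. Cdh5 was detected in 0 of 6 E9.5 and 0 of 6 E10.5 cells. The cells without it therefore include all cells of these later stages, and these counts mix Cdh5 with stage. The E7.5 cells, none of which had Tnnt2, divided by level: the 3 with Cdh5 had Gata4-2 at 2.69 ± 2.34 cycles and the 3 without it at 7.44 ± 1.46 cycles. Gata4-2 was detected in 2 of the 3 E7.5 cells with Cdh5 and in all 3 without it. At E8.5 the 2 cells with Cdh5 lacked both Gata4 assays, and the 4 others, which had both Tnnt2 assays, had Gata4-2 at 6.75 ± 1.3 cycles. The 3 E7.5 cells with the most Gata4-2 thus had neither marker.

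**Figure D3:**
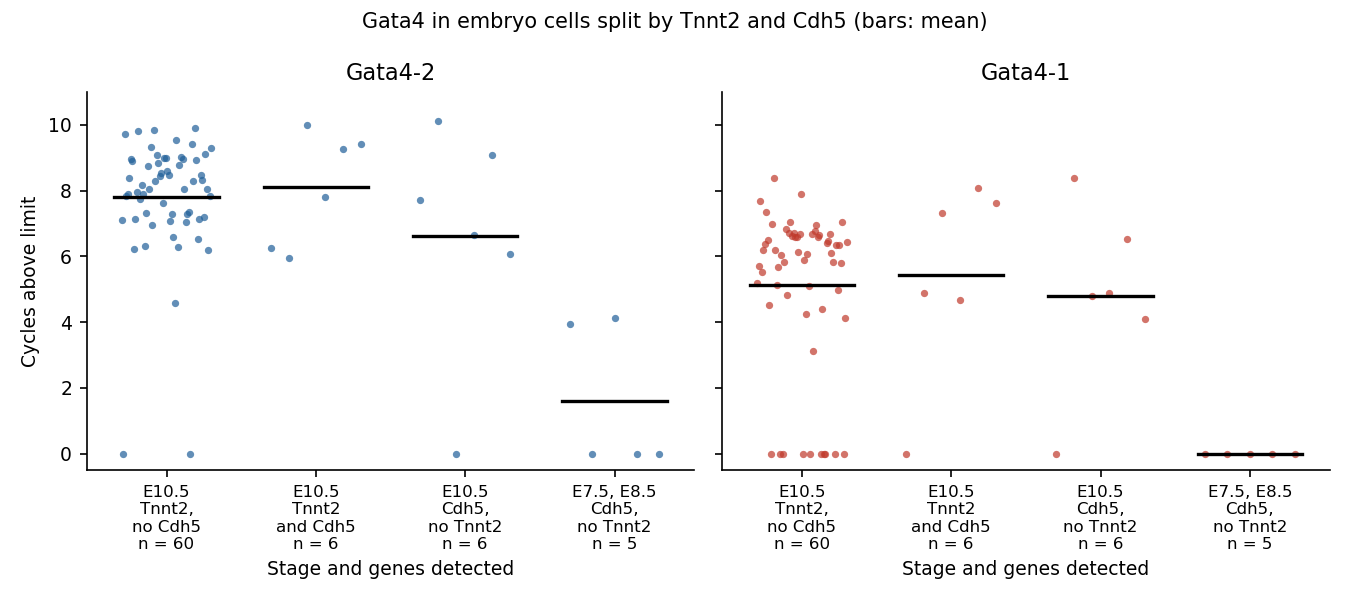
Gata4-2 (left) and Gata4-1 (right) in cycles above the detection limit in embryo cells split by detection of both Tnnt2 assays and of Cdh5; points are cells and bars are means. The 5 E7.5 and E8.5 cells with Cdh5 and not both Tnnt2 assays lie at 4.13 cycles or below, and 5 of the 6 such E10.5 cells lie at 6.08 cycles or above for Gata4-2.

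In the heart, the 2 assays gave different pictures of the adult atrium. Gata4-2 was detected in 10 of 10 adult atrial cells, from 2.78 to 9.32 cycles with a median of 5.56, and in the neonatal atrial cells at 7.04, 7.01, 8.13, 7.54 and 9.51 cycles. The adult cells spread over a range that held all neonatal cells but the highest. By Gata4-1, 2 of 10 adult atrial cells were detected, at 3.54 and 7.04 cycles, against 5 of 5 neonatal atrial cells, at 3.65, 5.15, 4.73, 4.96 and 8.15 cycles. The 8 adult cells at 0 lay below every neonatal cell, and the adult cell at 7.04 lay above 4 of the 5 neonatal cells.

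Gata4-2 averaged 5.64 ± 2.10 cycles in adult (n = 10) and 7.85 ± 1.04 cycles in neonatal atrial cells (n = 5), a difference of -2.20 cycles, and Gata4-1 averaged 1.06 ± 2.38 and 5.33 ± 1.68 cycles, a difference of -4.27 cycles. Both were called lower in adult cells, where 7.14% of all assays were higher and 35.7% lower. Fibroblast markers and the number of detected assays moved with age. Vim was detected in 0 of 10 adult and 5 of 5 neonatal atrial cells, Fn1 in 0 of 10 and 3 of 5, and Pdgfra in 0 of 10 and 2 of 5. Their summed level was 0 in every adult cell and ran from 4.90 to 34.4 cycles in the neonatal cells. The cells detected 19.7 ± 2.11 assays in the adult and 26.6 ± 1.52 in the neonatal set. The part of either in the Gata4 differences was not tested. Centred on Actb, which stood at 4.96 ± 1.23 cycles in adult and 6.83 ± 2.81 cycles in neonatal atrial cells, the Gata4-2 difference was -0.33 cycles, below the call, and the Gata4-1 difference was -4.46 cycles. Actb was uneven among the neonatal cells, at 9.32, 4.91, 4.96, 4.54 and 10.44 cycles. Of the 9 partner assays 0 were higher and 3 lower, with a median of -0.53 cycles beside -0.56 over all assays. The direction depended on the zero point: 3 were higher and 0 lower when centred on Actb, and 0 were higher and 5 lower when centred on the median detected assay. Mef2C-2 averaged 3.45 ± 2.36 cycles in adult and 5.83 ± 1.16 cycles in neonatal atrial cells, and Hand2 averaged 3.94 ± 1.95 and 6.11 ± 1.03 cycles. Of the muscle assays 3 were higher and 1 lower as measured, 7 and 3 when centred on Actb, and 1 and 3 when centred on the median detected assay. Myh6-1, for instance, averaged 14.51 ± 0.91 cycles in adult and 12.96 ± 0.56 cycles in neonatal atrial cells.

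In ventricular cells the ages differed less by Gata4-1. Gata4-2 stood between 4.88 and 8.30 cycles in 9 of the 10 adult cells and at 0 in the other, against 8.54, 8.04, 8.34, 7.12 and 6.79 cycles in the neonatal cells. Gata4-1 was detected in 8 of 10 adult cells, from 3.75 to 6.82 cycles, and in 5 of 5 neonatal cells, at 4.13, 4.85, 6.23, 4.81 and 2.62 cycles. The ages overlapped in both assays. Gata4-2 averaged 6.21 ± 2.39 cycles in adult (n = 10) and 7.76 ± 0.77 cycles in neonatal ventricular cells (n = 5), a difference of -1.56 cycles, called lower. Gata4-1 averaged 4.14 ± 2.36 and 4.53 ± 1.31 cycles, a difference of -0.39 cycles, below the call. By this rule 31% of all assays were higher and 16.7% lower in adult ventricular cells. The summed fibroblast markers ran from 0 to 10.3 cycles in adult and from 3.8 to 14.4 cycles in neonatal ventricular cells, and their part was not tested. Over detecting cells the Gata4-2 difference was -0.87 cycles, below the call, and centred on the median detected assay it was -3.00 cycles. The Gata4-1 difference was -1.80 cycles when centred on the median detected assay and 0.64 cycles over detecting cells, so neither its sign nor its call held. Leaving out the neonatal cell at 6.23 gave 0.03 cycles for Gata4-1.

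Most muscle genes and some partner factors were higher in the adult ventricular set as measured, fewer or none when centred on the median detected assay. Of the 10 muscle assays 8 were higher and 0 lower, with a median of 1.67 cycles beside 0 over all assays. On the median-centred scale 2 were higher and 2 lower. Tnni3-1, cardiac troponin I, averaged 13.88 ± 1.05 cycles in adult and 11.21 ± 0.50 cycles in neonatal ventricular cells. Of the 9 partner assays 3 were higher and 2 lower as measured, 2 and 2 when centred on Actb, and 0 and 2 when centred on the median detected assay. Tbx5 averaged 6.35 ± 1.13 cycles in adult and 4.40 ± 0.93 cycles in neonatal ventricular cells, and Hand2 averaged 6.70 ± 0.91 and 4.95 ± 1.76 cycles. On the median-centred scale these differences were 0.67 and 0.47 cycles, below the call.

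**Figure D4:**
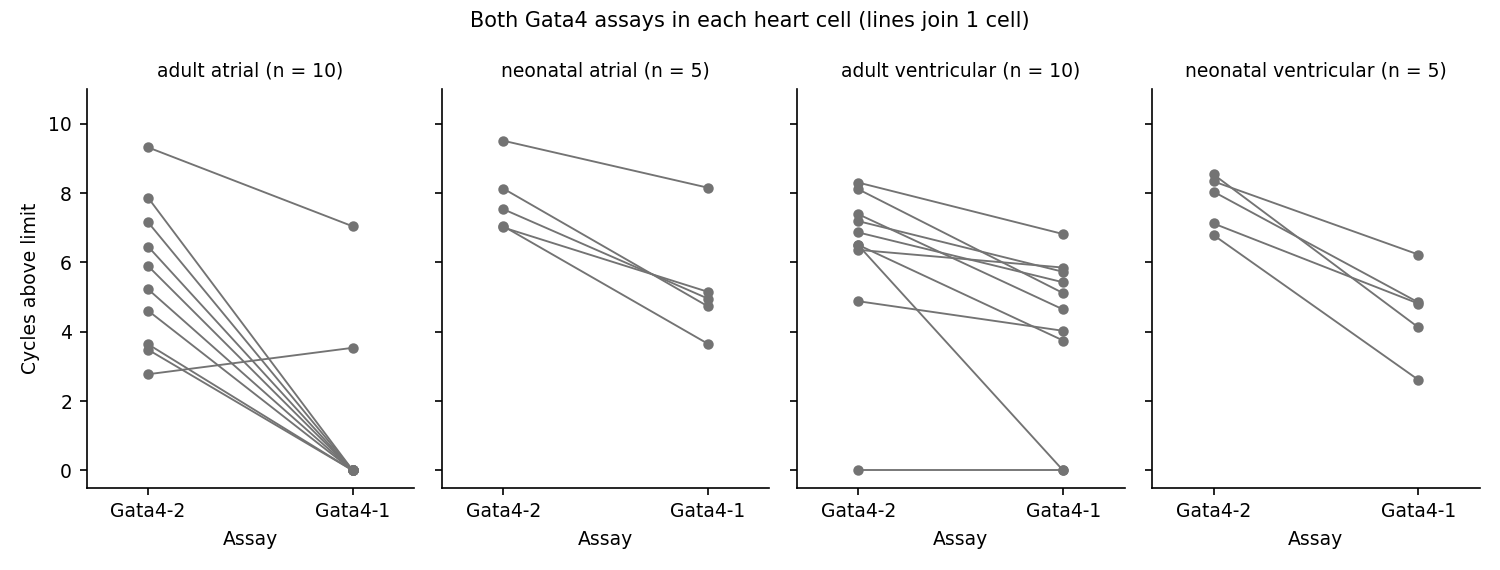
Gata4-2 and Gata4-1 in cycles above the detection limit in each heart cell, with a line joining the 2 values of 1 cell; panels run from adult to neonatal within the atrial and then the ventricular table. In adult atrial cells 8 of 10 lines end at 0 for Gata4-1, against 2 of 10 in adult ventricular cells and none in the neonatal sets.

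Between chambers, the adult sets were over 1 cycle apart by Gata4-1 but not by Gata4-2, as measured. Gata4-1 averaged 1.06 ± 2.38 cycles in adult atrial and 4.14 ± 2.36 cycles in adult ventricular cells (SD, n = 10 each), a difference of -3.08 cycles, called lower. Gata4-2 averaged 5.64 ± 2.10 and 6.21 ± 2.39 cycles, a difference of -0.57 cycles, below the call. By this rule 4.76% of all assays were higher and 23.8% lower in adult atrial cells. Centred on Actb the differences were -3.24 and -0.05 cycles for Gata4-1 and Gata4-2. Over detecting cells the Gata4-2 difference was -1.26 cycles, past the call, since the 1 undetected cell is ventricular. Between medians the differences were -4.88 and -1.12 cycles for Gata4-1 and Gata4-2.

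Among the adult partner assays 1 was higher and 1 lower in atrial cells (2 and 1 with either centring). Tbx5 averaged 8.32 ± 1.22 cycles in atrial and 6.35 ± 1.13 cycles in ventricular cells, and Hand2 averaged 3.94 ± 1.95 and 6.70 ± 0.91 cycles. Of the muscle assays 0 were higher and 6 lower in atrial cells. Myl2, the ventricular myosin light chain, was detected in 0 of 10 adult atrial cells and averaged 13.36 ± 1.34 cycles in adult ventricular cells.

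The neonatal chambers were less than 1 cycle apart by both assays as measured. Gata4-2 averaged 7.85 ± 1.04 cycles in neonatal atrial and 7.76 ± 0.77 cycles in neonatal ventricular cells, and Gata4-1 averaged 5.33 ± 1.68 and 4.53 ± 1.31 cycles (SD, n = 5 each). The differences, 0.08 and 0.80 cycles, were below the call, where 35.7% of all assays were higher and 11.9% lower in atrial cells. Centred on Actb, at 6.83 ± 2.81 cycles in atrial and 4.91 ± 0.76 cycles in ventricular cells, they were -1.85 and -1.13 cycles, both called lower in atrial cells. The higher atrial Actb mean rests on the cells at 9.32 and 10.44 cycles, the second of which also had the most Gata4 by both assays. Without the lowest neonatal atrial cell the Gata4-1 difference was 1.22 cycles, and without the highest neonatal ventricular cell it was 1.23 cycles, both past the call. Of the 9 partner assays 5 were higher and 1 lower in atrial cells (1 and 1 when centred on Actb), with Tbx5 at 8.14 ± 0.68 cycles in atrial and 4.40 ± 0.93 cycles in ventricular cells. The atrial and ventricular cells stand in separate tables, and table and chamber cannot be told apart.

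The 2 Gata4 assays disagreed in 52 of 192 cells, nearly always in one direction. Both were detected in 112 of 192 cells, neither in 28, Gata4-2 alone in 50 and Gata4-1 alone in 2, so that 72.9% of cells had the same call. In the 112 cells with both, Gata4-1 stood 2.11 ± 0.93 cycles below Gata4-2, with a range of the difference from -4.66 to 0.76, and was the lower one in 110. Pearson's r over these 112 cells was 0.74, a description only, since the 2 values of a cell share its RNA and its pre-amplification. The 2 cells with Gata4-1 alone were E10.5 cells, at 5.72 and 4.81 cycles.

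Beside the 8 other genes with a pair of assays, Gata4 was among the less concordant. The same call was given in 60.9% of cells for Kit and 97.4% for Myh6, the lowest and the highest, and Gata4 ranked 8 of 9. Its mean difference between assays was the second largest in size, after 2.51 cycles for Nkx2.5, which still had the same call in 96.4% of cells. In the positive control, which has far more template, the Gata4 assays differed by -1.24 cycles in the D23-D29 table and by -0.66 cycles in the tables of the D5-D8, reference and stage cells. The D5-D8, reference and stage tables hold identical control values for both assays, so -0.66 counts as 1 value.

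**Figure D5:**
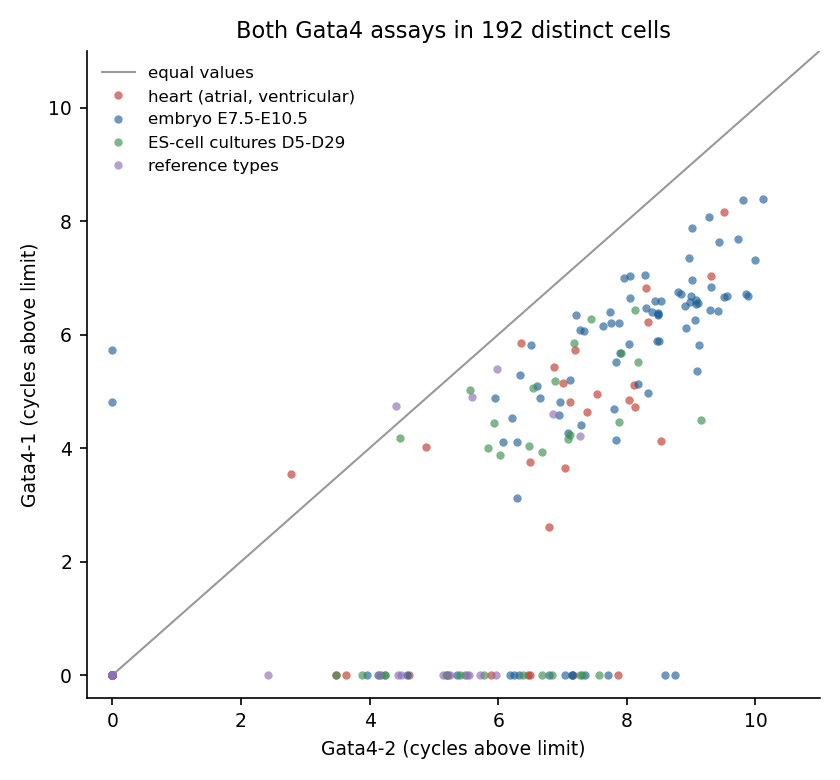
Gata4-1 against Gata4-2 in cycles above the detection limit; each point is 1 of 192 distinct cells, coloured by origin, and the line marks equal values. Nearly all cells lie below the line, 50 lie on the lower edge with Gata4-2 alone, and 2 lie on the left edge with Gata4-1 alone.

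Gata4-1 was detected more often the higher Gata4-2 stood. It gave signal in 2 of 30 cells without Gata4-2 (6.67%), 4 of 19 with Gata4-2 up to 5 cycles (21.1%), 26 of 49 above 5 and up to 7 (53.1%), 58 of 70 above 7 and up to 9 (82.9%) and 24 of 24 above 9. Among cells with Gata4-2 above 5 and up to 9 cycles, a window chosen after the values were seen, Gata4-1 was detected in 0 of 5 adult atrial cells (up to 52.2%), 7 of 8 adult ventricular cells, 4 of 4 neonatal atrial cells and 5 of 5 neonatal ventricular cells. In that window Gata4-2 averaged 6.52 cycles in the adult atrial cells and 7.15 cycles in the adult ventricular ones. Over all distinct cells of the window the share was 84 of 119 (70.6%), and in D29 cells 5 of 7.

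In the atrial and ventricular tables, whose rows run downwards as Mef2C-1, Gata4-2, Gata4-1, the positive control values of these assays stand 1 row lower than in the reference, D5-D8 and stage tables. Its value in the Gata4-1 row, 13.36 cycles, is the Gata4-2 value of the reference table, and its value in the Gata4-2 row, 14.03 cycles, is the Mef2C-1 value there. The cells did not follow that shift: over the 8 other gene pairs the mean absolute difference between paired assays was 0.97 cycles in atrial and 1.09 cycles in ventricular cells under the deposited names, and 6.92 and 5.59 cycles after moving the names by 1 row. For the Gata4 pair itself the 2 readings were alike, at 4.0 as given and 4.45 cycles moved in atrial cells, and 2.46 and 2.19 cycles in ventricular cells. The row names were kept, and the chamber and age values of each assay rest on them.

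Over all distinct cells pooled, those with Gata4-2 more often had its partner factors, and they also had more other assays. Nkx2.5-1 was detected in 123 of the 162 cells with Gata4-2 (75.9%) and 13 of the 30 without it (43.3%). Tbx5 was detected in 121 of 162 and 11 of 30, Mef2C-2 in 123 of 162 and 10 of 30, and Hand2 in 151 of 162 and 19 of 30. Hand1 was closer, at 71 of 162 and 12 of 30. The median number of other assays detected was 23 in cells with Gata4-2 and 15.5 in cells without it, and its part in these shares was not tested. Neither pattern held in every set or table. The median number of other assays was lower with Gata4-2 than without it in CPC (14 and 16), FB (9 and 11), E7.5 (13 and 17) and D23 cells (20 and 21), with 1 cell without it in each of the first 3 sets. Nkx2.5-1 was detected in 100% of cells with and without Gata4-2 in the D23-D29 table and in the heart tables, where 1 cell lacked Gata4-2. Tbx5 was detected in 83.3% of D23-D29 cells with Gata4-2 and 87.5% of those without. Among the 72 E10.5 cells, of which 3 lacked Gata4-2, Hand2 was detected in every cell and Mef2C-2 in 92.8% with and 100% without it. In the reference cells Mef2C-1 was detected in 29.4% with and 38.5% without Gata4-2.

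Over the means of the 21 sets, the assay most like each Gata4 assay by Pearson correlation was the other one (0.91). After it came Vcam1 (0.72), a cell adhesion molecule, Mef2C-2 (0.68) and Tbx5 (0.63) for Gata4-1, and Mef2C-2 (0.68), Tbx5 (0.68) and Nkx2.5-2 (0.66) for Gata4-2. The lowest were Pecam1 (-0.36) and Pou5f1 (-0.58) for Gata4-1, and Pecam1 (-0.48) and Pou5f1 (-0.70) for Gata4-2. The order depended on the measure. With cells centred on Actb, Mef2C-2 (0.87) and Nkx2.5-2 (0.86) stood above Gata4-1 (0.85) for Gata4-2, and the values for Pou5f1 were -0.06 and -0.02. By Spearman's rank correlation, Vcam1 (0.60) stood below Hand2 (0.71) and Kit-2 (0.68) for Gata4-1, and the other Gata4 assay stayed first (0.93). These correlations describe 21 means that share tables and, for CM and D29, 2 cells.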

How the data were processed

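Single mouse cells were measured with 42 TaqMan assays on Fluidigm chips, as the labels' protocols state. The authors deposited 1 Ct value per cell and assay, with no reference-gene correction visible in the values (Actb varies freely). No source used here gives the Ct threshold or a quality filter. Cells were grouped by table and by the cell names inside it. Expression was 25 minus Ct. Means, SDs between cells, shares with exact binomial intervals and differences of means were computed for every assay with Python 3.11.15, pandas 2.3.3, numpy 2.4.6, scipy 1.17.1 and matplotlib 3.10.9. The difference step recovered 42 of 42 assays on simulated data, which checks the calculation only. How the 1-cycle call performs in small sets with undetected cells was not tested.

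No animal or culture is named, so no test was run. Each of the 8 repeated cells counts once over all distinct cells. The members, the 2 gene lists and the 1-cycle call were chosen with earlier results of these data known. Other assays named are the 4 most like (the other Gata4 assay included) and 2 least like each Gata4 assay over set means, list members with the largest differences in a comparison (at most 4 a list), and cell type markers; Kit, the co-detection counts and the splits marked so were chosen after values were seen. Of the lists, Tbx20, Gata6, Srf, Foxh1, Myl7, Nppa, Nppb and Slc8a1 were not analysed here.

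Alternatives were a zero point at each cell's Actb value or at its median detected assay (cells without signal took the lowest centred value in the comparison), a limit at Ct 23, detecting cells only (at least 3), medians, a cell filter (Actb undetected, or detected assays over 3 median absolute deviations below the table median) and leaving out each cell of sets of 5. Values relative to the positive control, the 66 other E10.5 cells and cells with no Cdh5 were added after the data were seen.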

Additional observations from a re-analysis of the deposited data

Results flagged for a closer look

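Within sets of 4 to 10 cells, 10 of 36 combinations of set and assay had 1 cell far from the others. The nominal chance rate of this outlier rule, about 1 in 20, cannot be used here, since undetected cells all count as 0. A cell at the detection limit beside detected ones, or the reverse, meets this rule easily. Gata4-1 was detected in a single cell of the CM set, at 4.74 cycles, and of the FB set, at 4.91 cycles. Gata4-2 was detected in a single cell of the SMC set, at 5.97 cycles, and of the ES set, at 2.42 cycles. The reverse held for Gata4-2 in 1 cell at 0 in each of the CPC, FB, D7 and adult ventricular sets, where the next cell stood at 5.72, 4.49, 5.94 and 4.88 cycles. It held for Gata4-1 in 1 D6 cell at 0, where the next stood at 3.93 cycles. Gata4-1 stood at 7.04 cycles in 1 adult atrial cell, where the next stood at 3.54 cycles and the other 8 at 0. That cell also had the highest Gata4-2 value of its set, 9.32 cycles.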

How the results depend on the processing

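Of 385 recomputed values, 366 moved by less than the spread between cells and 19 by more. The 366 include values recomputed with the limit at Ct 23, that is, 2 cycles, which could not change any Gata4 level. The lowest detected level over all distinct cells was 2.62 cycles for Gata4-1 and 2.42 cycles for Gata4-2. Those unchanged values therefore say nothing about how stable the results are. Of the 109 differences recomputed other than by leaving out single cells in turn, 10 moved by more than that spread. Centred on Actb, Gata4-2 differences became 4.19 (CM minus CPC), 6.95 (D8 minus D5), 7.26 (E10.5 minus E7.5), -0.33 (adult minus neonatal atrial) and -1.85 cycles (neonatal atrial minus ventricular), and Gata4-1 differences 5.89 (E10.5 minus E7.5) and -1.13 cycles (neonatal atrial minus ventricular). Over detecting cells, D29 minus D23 was 1.49 cycles for Gata4-2, and between medians D23-D29 minus D5-D8 was -3.90 cycles for Gata4-1. Over cells with no Cdh5, E10.5 minus E7.5 was 0.41 cycles for Gata4-2. The cause was not tested. Leaving out single cells gave, for Gata4-1 and Gata4-2, -2.84 to -1.26 and -2.15 to -0.33 cycles (CM minus CPC), -4.69 to -3.56 and -2.41 to -1.79 (adult minus neonatal atrial), -0.87 to 0.03 and -1.80 to -1.36 (adult minus neonatal ventricular), and 0.10 to 1.23 and -0.33 to 0.29 (neonatal atrial minus ventricular). No paired analysis was possible because no result comes from a test and the labels pair no cells.

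Precision is limited by 5 to 10 cells in most sets, by 1 sample per set and by the detection limit, below which a low and an absent transcript read alike. Sets of different tables cannot be separated from the tables. The Actb-centred values rest on an assay that itself differed between sets by up to several cycles, and which zero point is right was not tested.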
